A study of Mus musculus with 6 samples.

Results

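The muscle miRNAs miR-133a-3p, miR-133a-5p, miR-133b-3p, miR-206-3p and miR-1a-3p were taken by name from the deposited table, which holds 1251 mature miRNA rows. All 5 were found there. Small RNA was sequenced from 2 fat depots of mice of the inbred strain C57BL/6J. The BF-EPA group is interscapular brown fat (3 libraries, numbered 3, 4 and 5) and the SUB-EPA group is inguinal subcutaneous fat, a white depot (3 libraries, numbered 1, 3 and 8). Mice of both groups entered the study at 5 to 6 weeks of age and ate a high fat diet for 11 weeks, in which fat gave 45% of the energy, protein 20% and carbohydrate 35%. Both groups had 6.75% eicosapentaenoic acid (EPA, an omega-3 fatty acid) in that diet, and tissue was taken after a fast of 4 hours. No genotype other than the strain is given, and the labels do not say whether a library holds 1 mouse or whether both depots came from the same mice. The difference described here is therefore between depots of EPA-fed mice, and no diet effect was tested.

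The miR-1 and miR-206 family and the miR-133 family are known as muscle miRNAs. Hairpins of the miR-1 kind and of the miR-133 kind lie next to each other in the genome and are transcribed together in skeletal muscle, and in heart muscle for miR-1 and miR-133a. MiR-1 and miR-206 promote the differentiation of muscle precursors, and miR-133 restrains serum response factor and keeps precursors dividing. In mouse fat, miR-133 is also known to repress Prdm16, a transcriptional regulator that sets brown adipocyte identity against muscle identity.

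The 2 families differ in the seed, bases 2 to 8 counted from the 5′ end, which pairs with target mRNAs. One mature sequence of each family is shown because the levels below separate the families; capitals mark the seed. The sequences are those of RefSeq on GRCm38.p6, whose table matched 2 of the 5 members.
miR-133b-3p: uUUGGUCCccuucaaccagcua
miR-206-3p: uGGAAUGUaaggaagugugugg
MiR-133a-3p, known to share the miR-133b-3p seed, is known to differ from it only at the 3′ end, so the division of reads between these 2 rows is uncertain. MiR-1a-3p is known to share the seed of miR-206-3p. Among deposited rows with a sequence in RefSeq, only miR-6349 and miR-6382 had the same seed as miR-206-3p, and both were at the lowest value of the table in all 6 libraries.

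The hairpins of the 2 printed miRNAs lie 3686 bases apart on the plus strand of chromosome 1 and are shown to place the 3p arm, which is in capitals. Mir206 spans chr1:20679010-20679082 and Mir133b spans chr1:20682769-20682887 (GRCm38.p6).
Mir206 hairpin: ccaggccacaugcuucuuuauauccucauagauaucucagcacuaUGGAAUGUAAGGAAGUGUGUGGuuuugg
Mir133b hairpin: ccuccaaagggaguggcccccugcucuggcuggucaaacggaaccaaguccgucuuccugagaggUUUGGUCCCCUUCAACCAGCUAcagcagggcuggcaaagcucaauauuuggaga
In GENCODE M21, Mir133b lies within an exon of the long non-coding RNA Gm28653, and Mir206 overlaps an exon of the same gene, on the same strand. Mir1a-1 (chr2:180389048-180389124) and Mir133a-2 (chr2:180398379-180398482) form the second pair, inside the RefSeq host gene Mir1a-1hg. Mir1a-2 and Mir133a-1 form a further pair elsewhere in the genome, so a mature miR-1a-3p or miR-133a-3p read cannot be assigned to one locus.

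The deposited values are log2 normalized abundances with a floor at 3.32, which 910 rows hold in all 6 libraries. A row there is described as listed at the floor. A fitted difference that takes in floor values depends on where the floor lies and is no fold, which holds below for miR-133b-3p, miR-133a-5p, miR-206-3p, miR-223-3p and miR-486-3p. In BF-EPA, libraries 3, 4 and 5 had 243, 243 and 258 rows above the floor. In SUB-EPA, libraries 1, 3 and 8 had 235, 273 and 252. The SUB-EPA order is also that of miR-133a-3p and miR-133b-3p below, whereas the BF-EPA order is not. Whether the floor status of the members in SUB-EPA follows the number of rows above the floor was not tested. The table gives no read depth. The libraries have nearly the same distribution of values, so that each value is set largely by the rank of the miRNA in its library. Across the 269 miRNAs that passed a filter on low values, libraries correlated at 0.936 to 0.973 within BF-EPA, 0.914 to 0.963 within SUB-EPA and 0.612 to 0.752 across tissues (Pearson's r over miRNAs, which are not independent replicates). All 6 tested arms of the brown adipocyte list were higher in BF-EPA than in SUB-EPA (limma, adjusted p under 0.05 for each, a call that 33.5% of all tested miRNAs had in that direction), while the seventh, miR-455-5p, was listed at the floor throughout. BF-EPA 4 and SUB-EPA 3 stood apart in the muscle miRNAs, as given next.

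MiR-133a-3p was the most abundant of the 5 in every library and varied more between libraries of one tissue than between tissues. In brown fat it stood at 10.32 in BF-EPA 3, 17.20 in BF-EPA 4 and 12.50 in BF-EPA 5 on the log2 scale. In subcutaneous fat it stood at 10.74 in SUB-EPA 1, 16.90 in SUB-EPA 3 and 13.32 in SUB-EPA 8. Each tissue thus had 1 high library, 1 intermediate and 1 low, and the tissues overlapped over nearly their whole range. The highest brown library exceeded the lowest by 118-fold on the linear scale of the deposited values, and the highest subcutaneous library exceeded the lowest by 71.8-fold. By rank, miR-133a-3p was number 4 in BF-EPA 4, 45 in BF-EPA 5 and 85 in BF-EPA 3, against number 5 in SUB-EPA 3, 36 in SUB-EPA 8 and 77 in SUB-EPA 1. As a share of all abundance above the floor, it made up 6.26% of BF-EPA 4, 0.241% of BF-EPA 5 and 0.0526% of BF-EPA 3. The corresponding shares were 5.10% of SUB-EPA 3, 0.424% of SUB-EPA 8 and 0.0706% of SUB-EPA 1. In both tissues the high library alone put miR-133a-3p among the 5 most abundant miRNAs. Ranks and shares count every row, also rows with identical values. MiR-486-5p and miR-3107-5p, both at 17.68 in all BF-EPA libraries, thus each take a place above miR-133a-3p in BF-EPA 4.

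MiR-133b-3p, the paralog encoded next to miR-206, was far below miR-133a-3p and followed the same libraries. It stood at 8.96 in BF-EPA 4 and was listed at the floor in BF-EPA 3 and BF-EPA 5. In subcutaneous fat it stood at 8.94 in SUB-EPA 3 and 6.78 in SUB-EPA 8, and at the floor in SUB-EPA 1. It was above the floor in the libraries that were highest and, in subcutaneous fat, next to highest in miR-133a-3p. Where both were above the floor, miR-133a-3p exceeded miR-133b-3p by 8.24 in BF-EPA 4, 7.96 in SUB-EPA 3 and 6.54 in SUB-EPA 8 on the log2 scale (mean 7.58 ± 0.91 SD, n = 3 libraries). Over the same 3 libraries miR-133a-3p itself lay between 13.32 and 17.20, a wider span than that of the gap. That gap leaves out the libraries with miR-133b-3p at the floor, so it does not show a steady ratio over all libraries. In BF-EPA 5, miR-133a-3p stood at 12.50 and miR-133b-3p at the floor of 3.32, further apart than in any of the 3.

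MiR-133a-5p, the passenger arm of the miR-133a hairpins, was above the floor in the 2 libraries with the highest miR-133a-3p. It stood at 6.71 in BF-EPA 4 and 7.32 in SUB-EPA 3, and was listed at the floor in BF-EPA 3, BF-EPA 5, SUB-EPA 1 and SUB-EPA 8. The 3p arm exceeded the 5p arm by 10.49 in BF-EPA 4 and by 9.58 in SUB-EPA 3 on the log2 scale. The 4 libraries at the floor were those with the lower miR-133a-3p levels. Of the other rows of the table, 2 were above the floor in the same pair of libraries alone, miR-212-5p and miR-342-5p, which were named after their values were seen.

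MiR-206-3p, known as a skeletal muscle miRNA, was above the floor in a single library. It stood at 7.71 in BF-EPA 4 and was listed at the floor in BF-EPA 3, BF-EPA 5 and all 3 SUB-EPA libraries. SUB-EPA 3 was at the floor for miR-206-3p although it nearly matched BF-EPA 4 in miR-133a-3p and miR-133b-3p. The agreement among members in that library therefore covered the miR-133 family only. A further 3 rows of the table were above the floor in BF-EPA 4 alone.

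MiR-1a-3p, the heart and skeletal muscle miRNA encoded beside miR-133a, was listed at the floor in all 6 libraries, including the 2 in which miR-133a-3p ranked among the 5 most abundant miRNAs. The 7 other arms and paralogs of the members that the table lists were also at the floor in all 6, namely miR-1a-1-5p, miR-1a-2-5p, miR-1b-3p, miR-1b-5p, miR-133b-5p, miR-133c and miR-206-5p. Rows at the floor include other miRNAs whose partner was measured. MiR-142-3p, which is abundant in leukocytes, was at the floor in all 6 libraries, while miR-142-5p from the same hairpin stood between 5.92 and 7.09 in BF-EPA and between 8.27 and 9.01 in SUB-EPA. Likewise miR-144-3p was at the floor in all 6, while miR-451a, from a neighbouring hairpin, stood between 8.19 and 9.18 in BF-EPA and between 9.80 and 10.43 in SUB-EPA. These rows were chosen after their values were seen. A floor value is thus reported as listed, and not as absence of the miRNA.

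**Figure D1:**
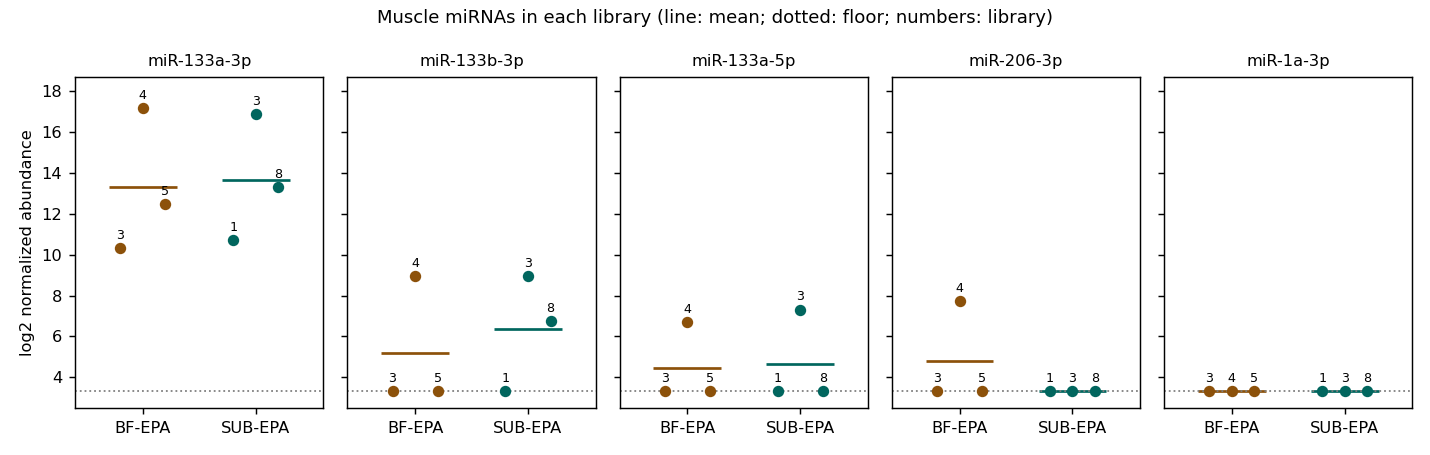
Log2 normalized abundance (y axis) of the 5 muscle miRNAs, 1 panel each, in the 3 BF-EPA and 3 SUB-EPA libraries (points, labelled by library number); lines are tissue means and the dotted line is the floor of 3.32. BF-EPA 4 and SUB-EPA 3 hold the highest miR-133a-3p, miR-133b-3p and miR-133a-5p, miR-206-3p is above the floor in BF-EPA 4 alone, and miR-1a-3p is at the floor in all 6.

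The levels did not separate the tissues. Of the 5 members, 4 passed the filter on low values, and 0 of these 4 were called different between BF-EPA and SUB-EPA by limma at an adjusted p of 0.05, with 0 at an unadjusted p under 0.05. Of all 269 tested miRNAs, 69.1% were called in one direction or the other. The libraries of the tissues overlapped for all 4, whereas they did not overlap for 74% of tested miRNAs. For miR-133b-3p, miR-133a-5p and miR-206-3p both tissues had libraries at the floor, which by itself makes the tissues overlap. Only miR-133a-3p, above the floor in every library, therefore bears on that contrast. Passing the filter rested on BF-EPA 4 alone for miR-206-3p, and on BF-EPA 4 and SUB-EPA 3 for miR-133a-5p.

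MiR-133a-3p averaged 13.34 ± 3.52 in BF-EPA and 13.65 ± 3.10 in SUB-EPA (SD, n = 3 each), a difference of -0.31 ± 2.16 SE (limma adjusted p = 0.904). The 95% interval of that difference ran from -5.53 to 4.91 on the log2 scale, so tissue differences of many-fold in either direction lie within it. An exact two-sided permutation test over the 6 libraries gave p = 0.8, where 0.1 is the smallest p that 3 against 3 can give. MiR-133b-3p averaged 5.20 ± 3.25 in BF-EPA and 6.35 ± 2.83 in SUB-EPA, with a difference of -1.15 ± 2.01 SE (limma adjusted p = 0.628, interval -6.01 to 3.72). MiR-133a-5p differed by -0.20 ± 1.46 SE (limma adjusted p = 0.904, interval -3.73 to 3.33). For miR-206-3p the fitted difference was 1.46 ± 1.27 SE (limma adjusted p = 0.329), which depends on where the floor lies, since all 3 SUB-EPA libraries were listed there. With 40 added after the floor was subtracted, the differences were -0.60 for miR-133b-3p and 0.86 for miR-206-3p, and with array weights they were -1.24 for miR-133a-3p, -2.38 for miR-133b-3p and 0.83 for miR-206-3p. Over all tested miRNAs the median difference stood at -0.45. Median-of-ratios scaling moved that median to -0.08 and turned the direction of miR-133a-3p, to 0.10, while miR-133a-5p was at -0.08.

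The sign of the miR-133a-3p difference depended on which library was left out. Without BF-EPA 4 the miR-133a-3p difference was -2.24 (limma adjusted p = 0.357), and without SUB-EPA 3 it was 1.31 (0.613). Without BF-EPA 3 it was 1.20 and without BF-EPA 5 it was 0.10, without SUB-EPA 1 it was -1.77 and without SUB-EPA 8 it was -0.48. With BF-EPA 4 and SUB-EPA 3 both left out, a choice made after the data were seen, the difference was -0.62 (limma adjusted p = 0.694) for miR-133a-3p and -1.73 (0.316) for miR-133b-3p. The remaining 4 libraries were all at the floor for miR-133a-5p and miR-206-3p, so no difference could be given there.

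**Figure D2:**
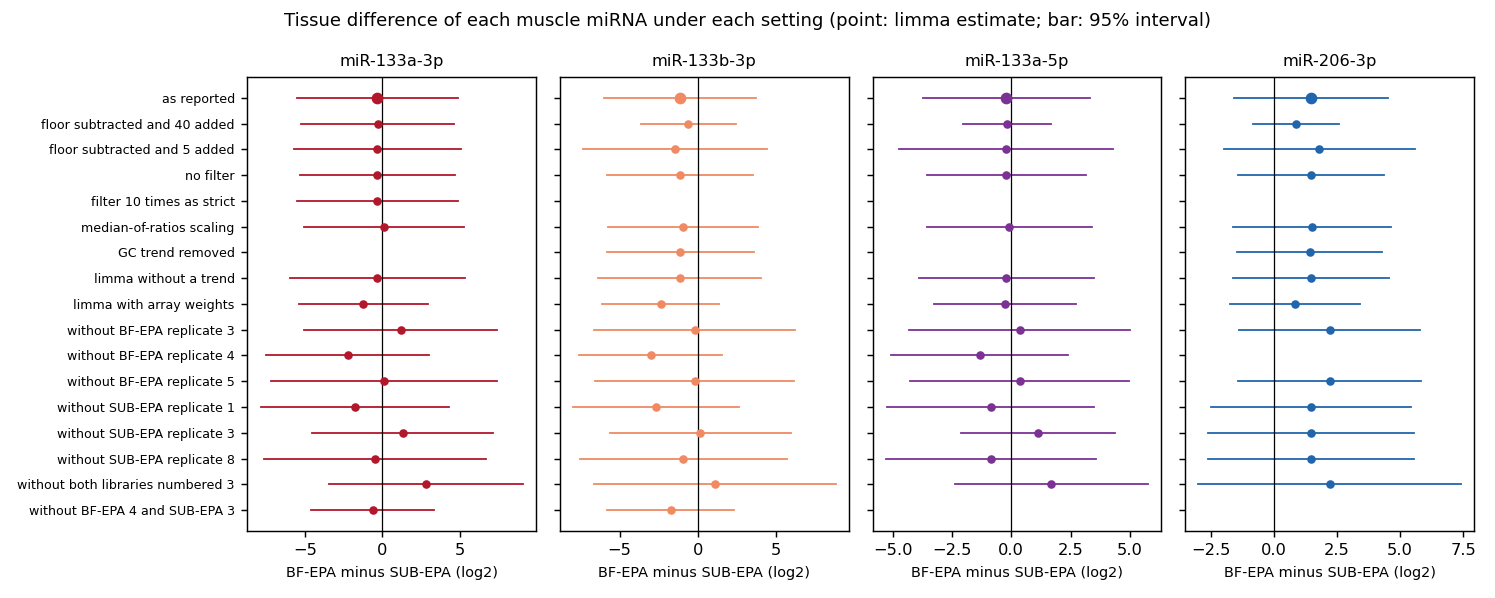
Difference between BF-EPA and SUB-EPA (x axis, log2, positive means higher in BF-EPA) for the 4 tested muscle miRNAs under each processing setting (rows); points are limma estimates and bars their 95% intervals. Every interval spans 0, and the estimate for miR-133a-3p runs from -2.24 to 2.82 over the settings.

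The spread between libraries of one tissue was the main feature of these miRNAs, and is described here without a test because the set was proposed with that spread known. In BF-EPA the SD of miR-133a-3p was 3.52 on the log2 scale, the largest of the 269 tested miRNAs, whose median SD there was 0.30. MiR-133b-3p followed with an SD of 3.25 and miR-206-3p with 2.54, so that 3 muscle miRNAs led the list. Of the brown libraries, BF-EPA 4 alone had miR-133b-3p and miR-206-3p above the floor. Their SDs and places therefore rest on that library, and both SDs were 0 without it. MiR-133a-5p, with an SD of 1.96, was number 12. In SUB-EPA the SD of miR-133a-3p was 3.10, number 3 of the 269, against a median of 0.37. MiR-133b-3p was number 5 with 2.83 and miR-133a-5p number 9 with 2.31, while miR-206-3p had no spread because all 3 libraries were at the floor. MiR-133b-3p and miR-133a-5p passed the filter only through the high libraries, so their places are not independent of those libraries. The 2 miRNAs with a larger SD than miR-133a-3p in SUB-EPA were the epithelial miR-205-5p (4.96) and miR-200b-3p (3.58), which were highest in SUB-EPA 1, the library with the lowest miR-133a-3p of that tissue.

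Large SDs are common near the floor, where 1 library above it is enough, but miR-133a-3p was far from the floor. Its mean level over the 6 libraries, which BF-EPA 4 and SUB-EPA 3 raised, was above that of 88.8% of tested miRNAs. Among the 30 miRNAs at or above that mean, the SD of miR-133a-3p was 3.52 in BF-EPA, and the next largest was 0.45 (let-7f-5p). In SUB-EPA it was 3.10, and the next largest was 0.65 (miR-27b-3p). Without BF-EPA 4, the SD of the 2 remaining brown libraries was 1.55, and without SUB-EPA 3 that of the remaining subcutaneous libraries was 1.83. The low and intermediate libraries therefore also lay apart, by 2.19 in BF-EPA and 2.58 in SUB-EPA.

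**Figure D3:**
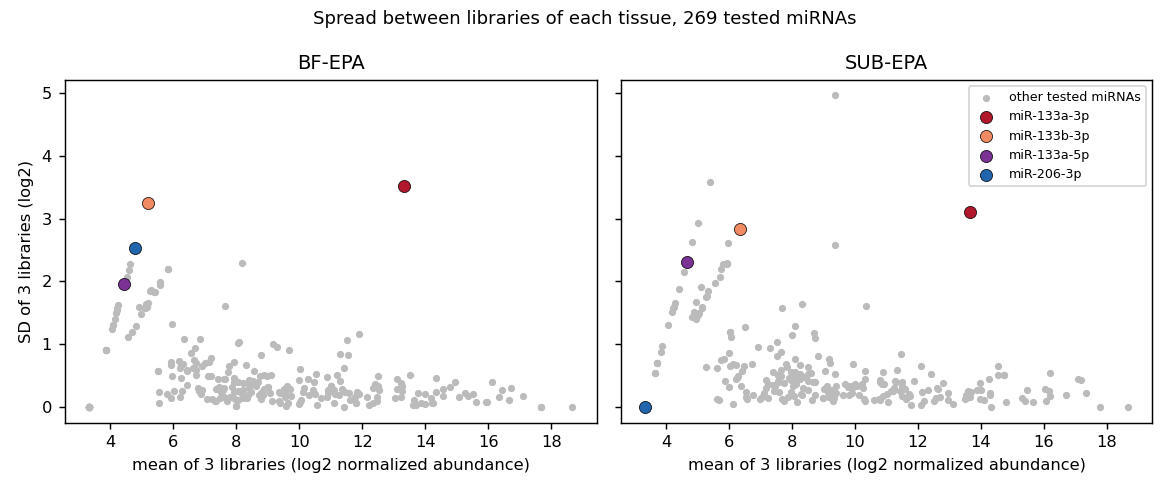
SD of 3 libraries (y axis, log2) against their mean (x axis, log2 normalized abundance) for the 269 tested miRNAs in BF-EPA (left) and SUB-EPA (right), with the muscle miRNAs coloured. MiR-133a-3p is alone among abundant miRNAs in both panels, with SDs of 3.52 and 3.10, and the other muscle miRNAs lie among the low-level miRNAs with large SDs, except miR-206-3p in SUB-EPA at 0.

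Some other miRNAs had their highest value in the same 2 libraries. BF-EPA 4 held the single highest value of its tissue for 75 tested miRNAs (27.9%), and SUB-EPA 3 for 92 (34.2%). Both held for 24 miRNAs (8.92%, where the product of the 2 shares is 9.54%), among them miR-133a-3p, miR-133b-3p and miR-133a-5p. Among 132 other tested miRNAs with a range of at least 1 log2 unit within a tissue, the 5 most like the mean of the 4 tested members were miR-149-5p (Pearson's r = 0.972), miR-181a-2-3p (0.966), miR-181b-5p (0.964), miR-128-3p (0.958) and miR-504-5p (0.908). The measure is the correlation of deviations from the tissue mean over 6 libraries, given as a description; its median over the 132 was 0.04. The libraries share a normalization that ties each value to the others, and r here rests on little more than whether BF-EPA 4 and SUB-EPA 3 were high.

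The 5 like miRNAs had smaller ranges than miR-133a-3p in both tissues. MiR-181a-2-3p, the passenger arm of a miR-181a hairpin, stood at 12.74 in BF-EPA 4 and at 10.93 and 10.87 in BF-EPA 3 and 5. In SUB-EPA it stood at 9.85 in library 3, 8.73 in library 8 and 7.49 in library 1, the same order as miR-133a-3p. In BF-EPA all 5 like miRNAs were higher in library 3 than in library 5, the reverse of miR-133a-3p. MiR-149-5p had a range of 1.52 in BF-EPA and 1.12 in SUB-EPA, against 6.88 and 6.17 for miR-133a-3p. MiR-128-3p, known from brain and other tissues, stood at 9.23 in BF-EPA 4 and 8.75 in SUB-EPA 3, and between 7.40 and 7.78 in the other 4 libraries.

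**Figure D4:**
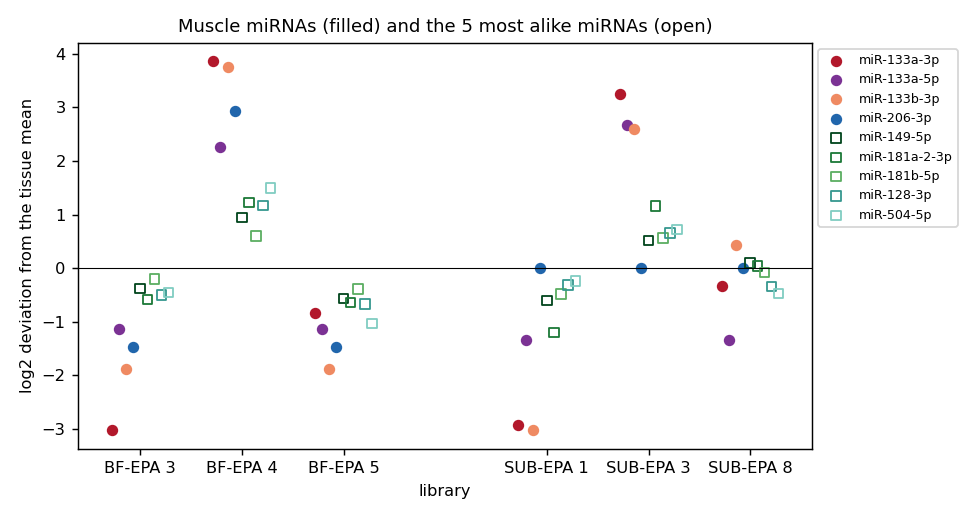
Log2 deviation from the tissue mean (y axis) in each library (x axis) for the 4 tested muscle miRNAs (filled points) and the 5 most alike other miRNAs (open squares). All 9 are highest in BF-EPA 4 within brown fat, and all but miR-206-3p, which is at the floor in SUB-EPA, are highest in SUB-EPA 3 within subcutaneous fat.

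Other muscle-enriched miRNAs followed only in part. Of 8 listed rows, 6 were at the floor in all libraries: both arms of miR-208a, of miR-208b and of miR-499, which are encoded in myosin heavy chain genes and known from heart and slow muscle fibres. The other rows were the arms of miR-486, which is abundant in muscle and also in red cells, and both were higher in BF-EPA (2 of 2 tested, limma, against 33.5% of all tested miRNAs). MiR-486-3p stood at 8.42, 10.29 and 8.75 in BF-EPA 3, 4 and 5, and at the floor, 7.60 and 6.33 in SUB-EPA 1, 3 and 8 (difference 3.40 ± 1.13 SE, limma adjusted p = 0.034). The miR-486-3p difference was 2.19 without SUB-EPA 1, the library at the floor (limma adjusted p = 0.046). The call was lost without BF-EPA 3, BF-EPA 4, BF-EPA 5 or SUB-EPA 8 (limma adjusted p 0.073 to 0.128). The highest library of miR-486-3p in each tissue was the one with the highest miR-133a-3p. MiR-486-5p stood at 17.68 in all 3 BF-EPA libraries, and at 14.15, 14.95 and 15.09 in SUB-EPA 1, 3 and 8 (difference 2.95, limma adjusted p = 0.00012). Values are set largely by rank, so a miRNA that keeps the same high rank in all BF-EPA libraries can show no rise in BF-EPA 4. MiR-486-5p is therefore uninformative about BF-EPA 4, and in SUB-EPA it was highest in library 8. The SD of miR-486-5p in BF-EPA was 0, so its SE and p may be too small.

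Marker lists of other cell types were set beside the muscle miRNAs in each library. The summed share of the 5 muscle miRNAs was 0.0526% to 6.29% of BF-EPA libraries and 0.0706% to 5.12% of SUB-EPA libraries. Nearly all of that sum was miR-133a-3p in every library, with 6.26% of BF-EPA 4 and 5.10% of SUB-EPA 3. The muscle miRNA sum therefore restates miR-133a-3p and is no separate result on the set. The 7 brown adipocyte arms summed to 19.7% in BF-EPA 4, and to 20.5% in each of BF-EPA 3 and 5, against 1.72% to 2.13% in SUB-EPA. MiR-378a-3p, the most abundant of these arms, held the highest value of the table (18.67) in all 3 BF-EPA libraries. That limits how far the sum could vary there, so its near constancy does not show equal brown adipocyte content. Smooth muscle arms of miR-143 and miR-145a summed to 0.995% to 1.22% in BF-EPA and 3.42% to 4.34% in SUB-EPA, with SUB-EPA 3 the lowest of its tissue. The arms of miR-126, from endothelium, summed to 0.134% to 0.158% in BF-EPA and 0.412% to 0.524% in SUB-EPA. The highest library of a tissue exceeded the lowest by 1.22-fold in BF-EPA and 1.27-fold in SUB-EPA for the smooth muscle sum, and by 119.7-fold in BF-EPA and 72.6-fold in SUB-EPA for the muscle miRNA sum. Other lists also varied widely within one tissue, by 132-fold in SUB-EPA for the epithelial sum and by 25.9-fold in BF-EPA for the liver miRNA.

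MiR-451a, from red cells, was lowest of its tissue in the 2 high libraries, at 8.19 in BF-EPA 4 and 9.80 in SUB-EPA 3, with miR-144-3p and miR-144-5p at the floor throughout. Of 5 leukocyte rows, miR-142-3p and miR-155-5p were at the floor throughout, and the 3 tested rows moved in different directions. MiR-223-3p (difference -5.51) and miR-142-5p (-2.08) were lower in BF-EPA, and miR-150-5p (1.27) was higher (limma adjusted p = 0.00023, 0.0041 and 0.0016). Their sum, 1.39% to 1.89% in BF-EPA and 0.598% to 0.835% in SUB-EPA, followed miR-150-5p, by far the most abundant. MiR-150-5p was highest of its tissue in SUB-EPA 3 (14.24) and lowest in BF-EPA 4 (15.02), whereas miR-223-3p (8.79) and miR-142-5p (8.27) were lowest of their tissue in SUB-EPA 3. Epithelial arms summed to 0.0111% to 0.0161% in BF-EPA, and to 1.64% in SUB-EPA 1 against 0.0124% and 0.0171% in SUB-EPA 3 and 8. MiR-122-5p, a liver miRNA, stood at 5.60 in BF-EPA 4, the lowest of its tissue, and at up to 9.97 (BF-EPA 3), and was at the floor in all 3 SUB-EPA libraries. The part of other cells, including muscle, in the muscle miRNA levels was not tested, and in whole tissue fewer cells of a type and less RNA per cell cannot be told apart.

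**Figure D5:**
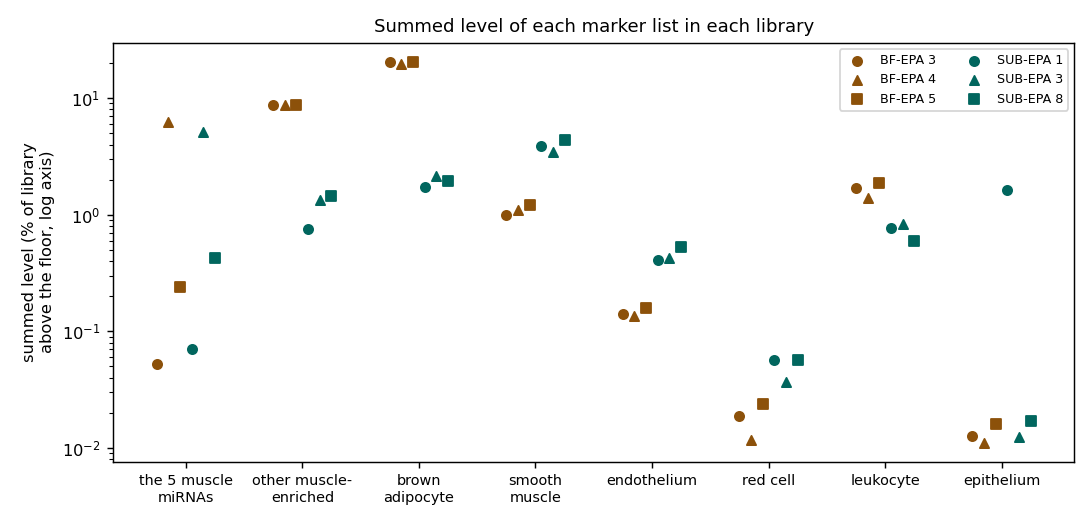
Summed level of each marker list (x axis) as a percentage of library abundance above the floor (y axis, log scale) in each BF-EPA and SUB-EPA library (points). The sum of the 5 muscle miRNAs, nearly all of it miR-133a-3p, ranges from 0.0526% to 6.29% in BF-EPA and from 0.0706% to 5.12% in SUB-EPA. BF-EPA 4 and SUB-EPA 3 are highest in that sum. The other lists group by tissue, except the epithelial list, where SUB-EPA 1 stands at 1.64%.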

How the data were processed

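Per the design text of the series, the authors mapped about 13.8 M reads per sample to mm10, scaled counts to total usable reads and added 40 counts; the aligner was not given in the sources used here, nor was the miRNA annotation. The table was deposited as log2 values. Of its 100 highest ranks, 64.0% held 1 value in all libraries (within 1e-06), so values follow ranks. Such shared values do not follow from the steps that the design text gives, nor does a floor of 10 on the linear scale. How the deposited values were made is therefore not fully known, and the setting with 40 added does not repeat the authors' step. No depth of single libraries is given, and hence no counting interval.

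A miRNA was tested if its mean above the floor (10 on the linear scale) reached 24.0 units, a fixed share of the mean library total. The comparison used limma 3.58.1 (R 4.3.3, trended variance, Benjamini-Hochberg over 269 miRNAs), as BF-EPA minus SUB-EPA. It was also run on simulated normal values, which had no floor, so that run says nothing about rows at the floor. Nothing says that libraries come from separate animals, so p-values cover only their spread, which may be technical. Likeness was ranked by correlation of within-tissue deviations, and up to 3 rows per list were named by mean level. Python 3.11.15 made the plots. Other pseudocounts, filters, scalings, variance models and left-out libraries were tried. Members and lists were chosen with earlier results of these data known.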

Additional observations from a re-analysis of the deposited data

How the results depend on the processing

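No muscle miRNA was called under any of the 56 estimates from other settings, with adjusted p (limma) between 0.184 and 0.975. The number of miRNAs called ran from 127 (of 157 tested, strict filter) to 198 (of 269, array weights), against 186 of 269 as reported. Directions turned as follows. Leaving out 1 library gave -2.24 to 1.31 for miR-133a-3p, -1.33 to 1.13 for miR-133a-5p and -3.02 to 0.15 for miR-133b-3p; positive values came without BF-EPA 3, BF-EPA 5 or SUB-EPA 3 for both arms of miR-133a, and without SUB-EPA 3 for miR-133b-3p. Without both libraries numbered 3 the differences were 2.82, 1.69 and 1.09, and with median-of-ratios scaling 0.10 for miR-133a-3p. With 40 added after the floor was subtracted, within-tissue SDs fell to 1.01 (BF-EPA) and 1.30 (SUB-EPA) for miR-133a-5p, 2.15 and 1.85 for miR-133b-3p, and 1.49 in BF-EPA for miR-206-3p. Without 1 library, SDs ran from 1.55 to 4.87 (BF-EPA) and 1.83 to 4.36 (SUB-EPA) for miR-133a-3p, 0 to 2.40 and 0 to 2.83 for miR-133a-5p, 0 to 3.99 and 1.53 to 3.97 for miR-133b-3p, and 0 to 3.10 in BF-EPA for miR-206-3p. Removal of the GC trend could not be applied to miR-133a, which had no sequence in the table used; the strict filter left miR-133a-3p alone of the members; and without BF-EPA 4, miR-206-3p was at the floor in all libraries left. No paired analysis was possible because the tissues share only the number 3. The unknown depth of single libraries limits what a floor value shows.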
